A study of Homo sapiens with 17 samples.

Results

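The 10 genes described here are the Wnt pathway transcription factors LEF1, TCF7 and TCF7L2, the feedback genes AXIN2, LGR4, LGR5, RNF43, ZNRF3 and NKD1, and the antagonist SHISA3, out of 60662 genes in the count table. The first 9 were chosen by their role in the pathway, with earlier results of these data known. SHISA3 was selected on its rise under progesterone, so its values in that comparison are a description without a test. Total RNA of Ishikawa cells, an established human endometrial adenocarcinoma line with epithelial features, was sequenced as a stranded library from each of 17 cultures. All cultures grew in medium with charcoal-stripped serum, and all replicates came from this 1 cell line.

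The 3 control cultures received control medium only, and their labels name no time. The 3 vehicle control cultures are titled with Nap and EtOH, and their treatment label names 70% ethanol for 24 h. The 2 Nap vehicle cultures received for 24 h a vehicle that the labels call Nap without explaining it. The 3 P4 treated cultures received Nap with progesterone (P4) for 24 h, and since their label names no ethanol, P4 and ethanol cannot be told apart in the comparison with the vehicle control. The study's text names a single P4 concentration for its sequenced cells, but the labels tie none to these cultures and none is printed here. The other 6 libraries carry titles and column names that contradict each other on whether recombinant PSAT1 was given alone or with P4, so they have no condition here and enter no comparison.

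Wnt ligands bind Frizzled and LRP5/6 receptors at the cell surface, which stops the destruction complex around AXIN and APC from marking beta-catenin for degradation. Stabilised beta-catenin then enters the nucleus and works with TCF/LEF transcription factors. Many genes that this switches on feed back on the pathway: AXIN2 rebuilds the destruction complex, RNF43 and ZNRF3 remove Frizzled from the surface, NKD1 binds Dishevelled, and LGR4 and LGR5 receive R-spondins, which shield Frizzled from RNF43 and ZNRF3. In the endometrium, oestrogen and progesterone are known to act on this pathway in opposite directions over the cycle.

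Promoter windows, from 250 bases before to 50 bases after an annotated RefSeq start, were matched for 6 of the 10 genes (10 windows, GRCh38.p14). AXIN2, LGR5, ZNRF3 and NKD1 had no window in the table used. The windows were searched on both strands for CTTTG followed by A or T at each of the next 2 positions, letters that TCF/LEF factors bind, and for ACANNNTGT, the core letters of a progesterone or glucocorticoid receptor element; no match of one motif overlapped a match of the other. The 3 windows that hold such letters are shown with the match in capitals, beside that of SHISA3, the gene with the largest difference under P4 among the 10. They lie at chr5:134123368-134123667 (TCF7, plus strand), chr10:113126383-113126682 and chr10:113129021-113129320 (TCF7L2, plus strand) and chr4:42397238-42397537 (SHISA3, plus strand).
TCF7 internal start: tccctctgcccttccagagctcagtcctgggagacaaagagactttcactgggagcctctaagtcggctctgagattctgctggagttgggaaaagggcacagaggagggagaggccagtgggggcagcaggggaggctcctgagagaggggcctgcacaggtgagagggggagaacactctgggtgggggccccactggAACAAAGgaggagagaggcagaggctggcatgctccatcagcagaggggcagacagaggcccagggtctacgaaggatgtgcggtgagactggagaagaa
TCF7L2 internal start A: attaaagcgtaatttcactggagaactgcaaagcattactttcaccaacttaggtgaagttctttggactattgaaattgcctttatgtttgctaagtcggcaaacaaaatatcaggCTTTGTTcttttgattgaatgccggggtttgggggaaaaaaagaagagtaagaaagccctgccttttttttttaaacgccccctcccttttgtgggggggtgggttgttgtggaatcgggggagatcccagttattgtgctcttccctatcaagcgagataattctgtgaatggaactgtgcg
TCF7L2 internal start B: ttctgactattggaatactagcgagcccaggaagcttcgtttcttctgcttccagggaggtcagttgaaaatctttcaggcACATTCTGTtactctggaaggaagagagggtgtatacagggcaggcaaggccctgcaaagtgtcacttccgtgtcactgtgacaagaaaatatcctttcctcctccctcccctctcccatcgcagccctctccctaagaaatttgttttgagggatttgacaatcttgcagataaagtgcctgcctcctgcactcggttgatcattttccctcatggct
SHISA3: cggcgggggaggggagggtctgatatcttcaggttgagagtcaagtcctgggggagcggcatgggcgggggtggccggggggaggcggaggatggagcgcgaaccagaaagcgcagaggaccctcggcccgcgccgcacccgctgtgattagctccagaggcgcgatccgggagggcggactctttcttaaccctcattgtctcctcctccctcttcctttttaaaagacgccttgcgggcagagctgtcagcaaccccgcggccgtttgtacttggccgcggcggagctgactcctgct

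The TCF7 window holds CTTTGTT on the minus strand, read as AACAAAG on the plus strand, at -50 from the start. The first of the TCF7L2 windows holds CTTTGTT at -133, and the second holds ACATTCTGT, which fits ACANNNTGT, at -169. None of these letters are in the SHISA3 window or in those of LEF1, LGR4 and RNF43. Among all 35116 windows, 13.8% hold at least 1 of the TCF/LEF letters and 5.37% hold ACANNNTGT, and 2 and 1 of the 10 windows do. The SHISA3 window ends before the start that GENCODE 29 gives for the gene (42397839).

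Library totals ran from 4999521 reads (vehicle control replicate 1) to 19704493 reads, and each of the 10 genes had at least 8 reads in every library. Levels are given as CPM, the share of a library's reads after scaling of library sizes by TMM, a factor that aligns libraries of different composition. All 4 epithelial markers, EPCAM, CDH1, KRT8 and KRT18, were at 172 CPM or more in every library, and their sum was 1093 to 1096 CPM in vehicle control and 872 to 1020 CPM in P4 treated cultures. From vehicle control to P4, the means of KRT8 (398 to 248 CPM) and KRT18 (255 to 204 CPM) were lower and that of CDH1 (264 to 315 CPM) was higher. The 4 fibroblast or stromal markers summed to 416 to 619 CPM in control, 342 to 357 CPM in vehicle control and 127 to 178 CPM in P4 treated cultures. In this order, COL1A2 had means of 384, 267 and 84.5 CPM, COL3A1 of 90.5, 52.0 and 48.4 CPM, and COL1A1 of 25.4, 29.9 and 22.6 CPM. The lower sum under P4 than in vehicle control thus came mostly from COL1A2. DCN had at most 2 reads in any library. The 3 immune markers summed to 0.260 to 0.891 CPM in control, 1.15 to 1.47 CPM in vehicle control and 0.152 to 0.429 CPM in P4 treated cultures, with at most 1 read of CD3E, 12 of PTPRC and 14 of CD68. The 3 endothelial markers summed to 1.13 to 1.49, 0.442 to 1.05 and 0.172 to 0.381 CPM in the same order, nearly all of it VWF (at most 24 reads), with CDH5 at 0 in every library. The part of these differences in the results was not tested. PGR, the progesterone receptor, had a mean of 111 CPM in control, 57.4 CPM in vehicle control and 21.7 CPM in P4 treated cultures. In such bulk RNA, fewer cells of a kind and less RNA per cell cannot be told apart.

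**Figure D1:**
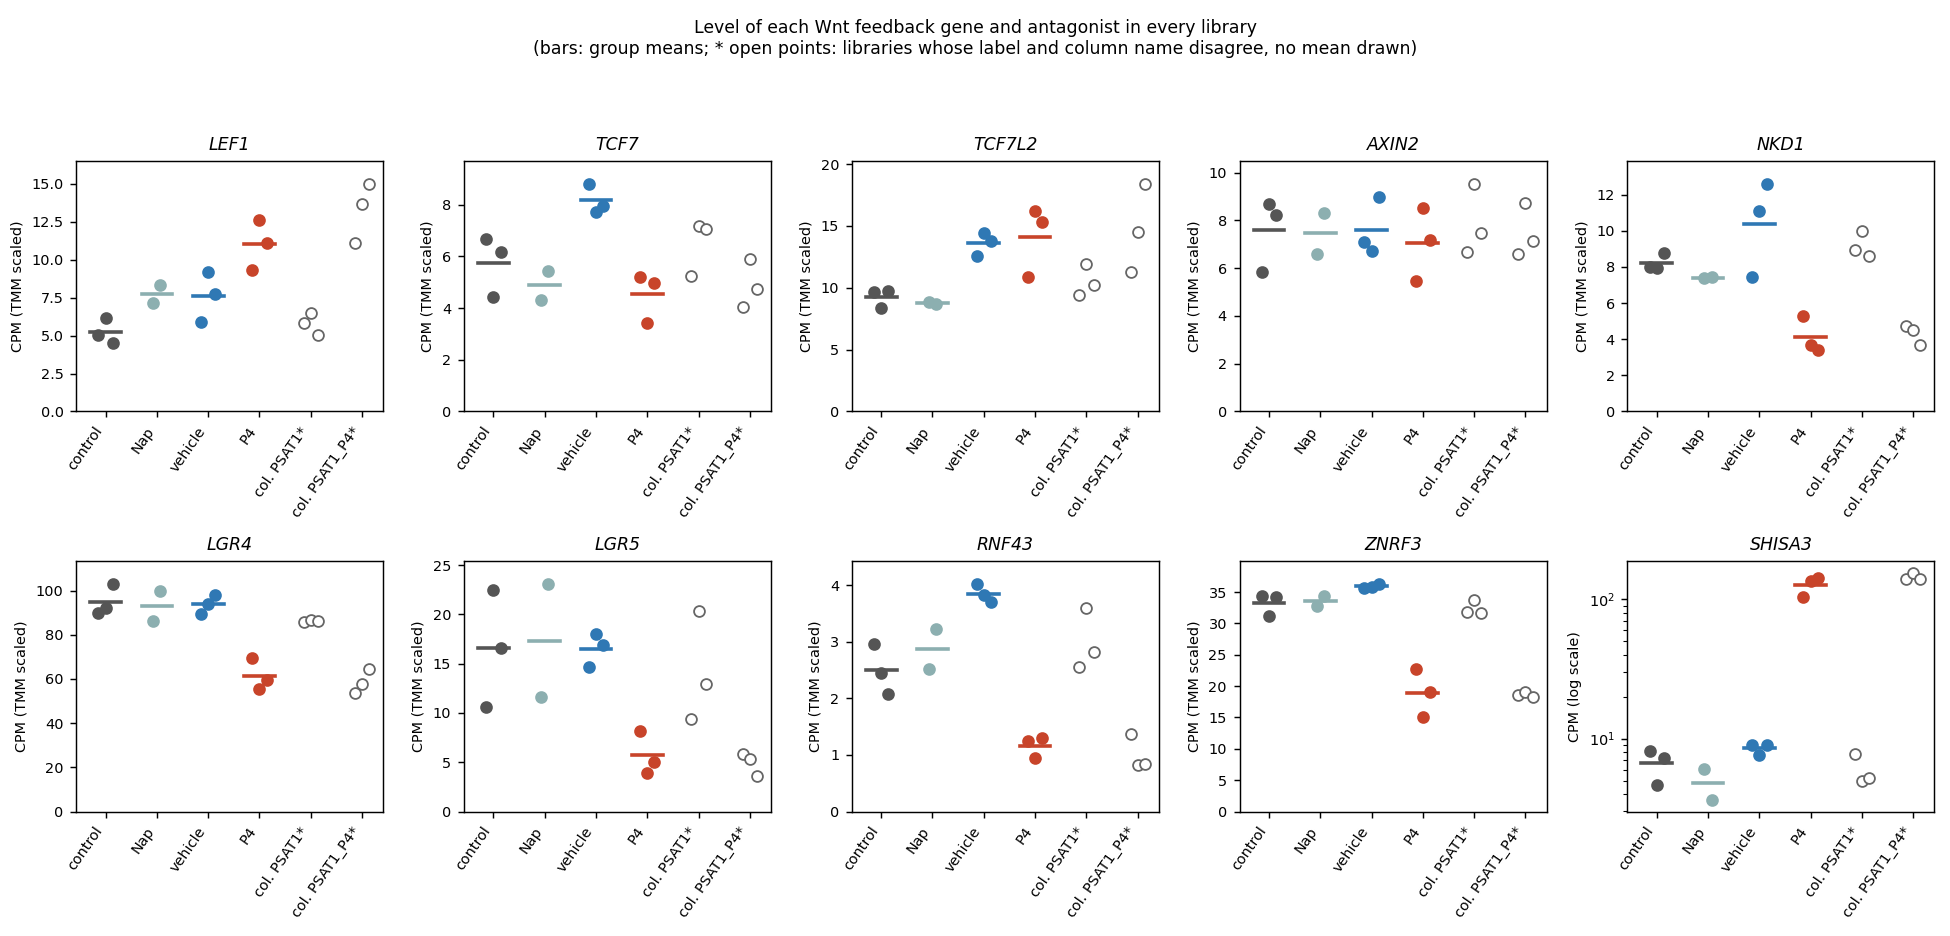
Level in CPM (library sizes scaled by TMM; log axis for SHISA3) of the 10 genes in all 17 libraries, 1 panel per gene; filled points are cultures with a group, bars their means, and open points the 6 libraries without a condition. LGR4, LGR5, RNF43, ZNRF3 and NKD1 were lower and SHISA3 higher in all 3 P4 treated cultures than in the vehicle control cultures, while the AXIN2 points of all groups overlapped.

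Within the P4 comparison, the R-spondin receptors, the receptor ubiquitin ligases, NKD1 and TCF7 decreased, LEF1 increased, and AXIN2 and TCF7L2 did not pass the test. By the quasi-likelihood test of edgeR, with p-values adjusted after Benjamini-Hochberg over 16540 genes, 7 of the 9 genes other than SHISA3 were called at an adjusted p under 0.05. Of these, 6 were lower and 1 was higher. Many genes differed in this comparison: 53.0% of all genes tested were called, 26.6% higher and 26.5% lower, so 7 of 9 is to be read against that share. With a log2 fold change under -1 as a further bound, 3 of the 9 were called lower, beside 7.03% of all genes (12.4% passed an absolute log2 fold change of 1 in either direction). The cultures of P4 and vehicle control did not overlap in 7 of the 9, beside 60.3% of all genes tested. The median log2 fold change of the 9 was -0.85, and that of all genes tested was -0.01.

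Of the transcription factors, LEF1 (chr4:108047545-108168956, minus strand), a beta-catenin partner that is itself a Wnt target in many cells, was at 5.93, 9.21 and 7.72 CPM in vehicle control replicates 1 to 3 and at 9.32, 12.6 and 11.1 CPM in P4 treated replicates 1 to 3. The groups did not overlap, but the lowest P4 culture was only just above the highest vehicle culture. The log2 fold change was 0.47 ± 0.17 (SE, n = 3 and 3; edgeR adjusted p = 0.0337). This call was lost without P4 treated replicate 2 (0.37, adjusted p = 0.0867) or 3 (0.48, 0.0825) and without vehicle control replicate 1 (0.37, 0.0942) or 3 (0.45, 0.102) in edgeR. Replicate 1 of the vehicle control, the smallest library, gave LEF1 only 31 reads.

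TCF7 (chr5:134114711-134151865, plus strand), the family member best known from T cells, was at 8.80, 7.73 and 7.96 CPM in vehicle control and at 5.19, 3.43 and 4.96 CPM in P4 treated cultures. All P4 values were below all vehicle values, with a log2 fold change of -0.85 ± 0.18 (SE, n = 3 and 3; edgeR adjusted p = 0.00172), so that its level fell by 44.5%. Control cultures, at 6.67, 4.41 and 6.16 CPM, and Nap vehicle cultures, at 4.32 and 5.43 CPM, overlapped the P4 cultures. With control as the reference the log2 fold change was -0.36 ± 0.21 (edgeR adjusted p = 0.161), and with Nap vehicle it was -0.14 ± 0.24 (edgeR adjusted p = 0.645), so the decrease was called against the vehicle control only. Exons of TCF7 overlap SKP1, a ubiquitin ligase subunit encoded on the opposite strand, which had far more reads (mean 165 CPM in vehicle control and 134 CPM in P4 treated cultures; log2 fold change -0.32 ± 0.07, edgeR adjusted p = 0.00307). The strand setting of the counting is not given in the sources used here, and the part of SKP1 reads in the TCF7 values was not tested.

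TCF7L2 (chr10:112950250-113167678, plus strand), the main TCF of many epithelia, gave 12.6, 14.4 and 13.8 CPM in vehicle control and 10.9, 16.2 and 15.3 CPM in P4 treated cultures. The P4 values lay on both sides of the vehicle values, and the log2 fold change of 0.03 had a 95% interval from -0.29 to 0.35 (edgeR adjusted p = 0.87). Against control cultures (9.63, 8.36 and 9.73 CPM) TCF7L2 was higher under P4 by 0.60 ± 0.16 on the log2 scale (edgeR adjusted p = 0.00348), and against Nap vehicle (8.88 and 8.65 CPM) by 0.67 ± 0.18 (edgeR adjusted p = 0.00936). Vehicle control cultures, too, were above all control and Nap vehicle cultures in TCF7L2.

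AXIN2 (chr17:65528563-65561647, minus strand), the scaffold often used as a general readout of Wnt activity, was at 7.08, 6.70 and 9.00 CPM in vehicle control and at 5.48, 8.50 and 7.17 CPM in P4 treated cultures. The groups overlapped, with P4 replicate 1 below and vehicle replicate 3 above the range of the other group. The log2 fold change was -0.13, with a 95% interval from -0.53 to 0.28 (edgeR adjusted p = 0.586), and it was -0.12 against control and -0.11 against Nap vehicle. Over all 17 libraries AXIN2 stayed between 5.48 and 9.53 CPM.

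LGR4 and LGR5, the R-spondin receptors, were both lower under P4. LGR4 (chr11:27365961-27472775, minus strand), which is widely present in epithelia, was at 89.2, 94.1 and 97.9 CPM in vehicle control and at 69.5, 55.5 and 59.4 CPM in P4 treated cultures, with no overlap. Its log2 fold change was -0.63 ± 0.09 (SE, n = 3 and 3; edgeR adjusted p = 8.6e-05). LGR5 (chr12:71439770-71586310, plus strand), a marker of stem cells in several epithelia, was at 14.7, 18.0 and 16.9 CPM in vehicle control and at 8.17, 3.86 and 5.03 CPM in P4 treated cultures. The highest P4 value of LGR5 was well below the lowest vehicle value, and the log2 fold change was -1.59 ± 0.21 (edgeR adjusted p = 4.6e-05).

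Control cultures varied more in LGR5, relative to their mean, than in any other of the 10 genes (16.5 ± 5.94 CPM, SD, n = 3), at 10.6, 22.5 and 16.6 CPM, and Nap vehicle cultures were at 11.6 and 23.1 CPM. P4 treated cultures were below all of these, and against control the log2 fold change was -1.58 ± 0.34 (edgeR adjusted p = 0.00477).

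The membrane ubiquitin ligases RNF43 and ZNRF3 also decreased. RNF43 (chr17:58352500-58417595, minus strand) had the lowest level, at 4.02, 3.83 and 3.70 CPM in vehicle control and at 1.25, 0.944 and 1.30 CPM in P4 treated cultures, the latter from 11 to 17 reads. The groups were far apart, and the log2 fold change of -1.72 ± 0.24 (SE, n = 3 and 3; edgeR adjusted p = 7.0e-05) was the largest decrease of the 9 against vehicle control. For RNF43 the log2 fold change was -1.13 ± 0.28 against control and -1.33 ± 0.29 against Nap vehicle. With these references LGR5 had the larger decrease (-1.58 and -1.66). RNF43 shares exon positions with SUPT4H1 and AC004687.2 on its own strand and with TSPOAP1-AS1 on the other, which had at most 24, 7 and 17 reads in any library. ZNRF3 (chr22:28883592-29057487, plus strand) was at 35.6, 35.8 and 36.3 CPM in vehicle control and at 22.8, 15.1 and 19.0 CPM in P4 treated cultures. Vehicle cultures hardly differed among themselves in ZNRF3, and the log2 fold change was -0.94 ± 0.13 (edgeR adjusted p = 5.9e-05).

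NKD1 (chr16:50548330-50649249, plus strand), the Dishevelled-binding antagonist, was at 7.46, 11.1 and 12.6 CPM in vehicle control and at 5.28, 3.69 and 3.43 CPM in P4 treated cultures. The vehicle cultures were spread, with replicate 1 the lowest, but none reached the P4 values. The log2 fold change was -1.41 ± 0.21 (SE, n = 3 and 3; edgeR adjusted p = 1.5e-04). Control cultures, at 8.02, 7.95 and 8.76 CPM, were lower than 2 of the vehicle cultures, and against them the log2 fold change was smaller at -1.03 ± 0.19 (edgeR adjusted p = 2.0e-04).

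SHISA3 (chr4:42397839-42402487, plus strand) encodes a membrane protein that holds Frizzled and FGF receptors back inside the cell. It was selected on the P4 comparison, so its values are given without a test. It was at 8.99, 7.66 and 9.08 CPM in vehicle control and at 104, 136 and 142 CPM in P4 treated cultures, which is 14.8-fold higher (log2 fold change 3.89). Control cultures were at 8.12, 4.67 and 7.28 CPM and Nap vehicle cultures at 6.05 and 3.62 CPM, giving log2 fold changes of 4.23 and 4.70. The lowest P4 value stood far above every value of the other 3 groups.

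**Figure D2:**
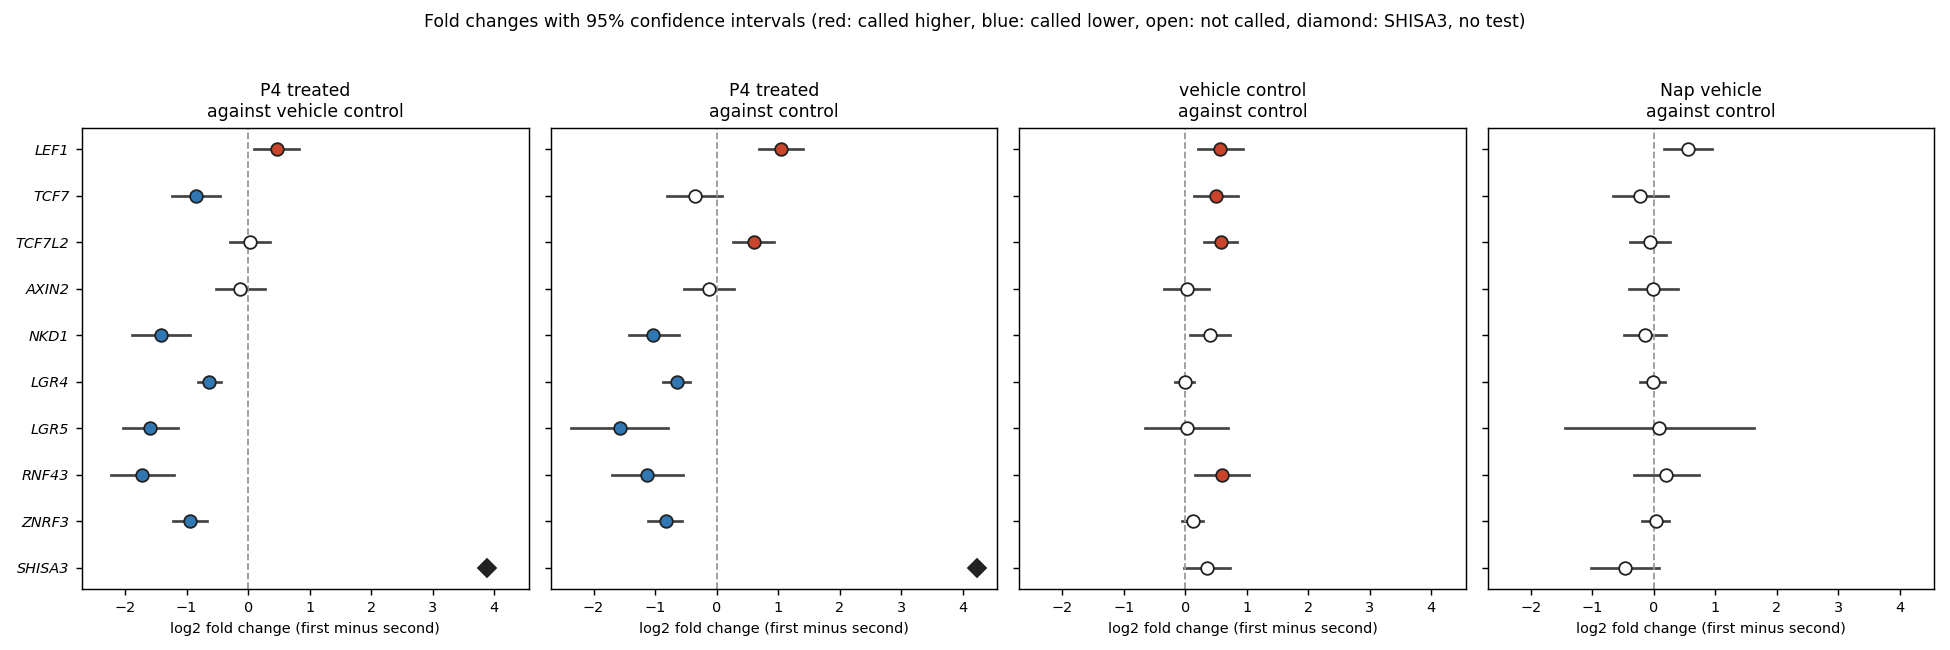
Log2 fold changes (points) and 95% confidence intervals (lines) of the 10 genes in 4 comparisons, with genes called higher in red, called lower in blue and not called open; the SHISA3 diamond has no test in the P4 comparisons. LGR4, LGR5, RNF43, ZNRF3 and NKD1 were called lower against both references, whereas TCF7 was called lower against vehicle control (-0.85) and not against control, and TCF7L2 was called higher against control (0.60) and not against vehicle control.

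P4 treated cultures enter all 3 comparisons with a reference group, so these share samples and are set side by side only. Against control, 7 of the 9 were called, 2 higher and 5 lower, beside 54.8% of all genes tested. Against Nap vehicle, 7 of the 9 were called, again 2 higher and 5 lower, beside 49.7% of all genes. LGR4, LGR5, RNF43, ZNRF3 and NKD1 were called lower with each of the 3 references and under all 15 alternative settings of the P4 comparison, and LEF1 was called higher with each reference.

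The vehicle control itself was compared with control cultures to ask what it does without P4. Here 4 of the 10 genes were called, all higher, beside 22.6% of all 16673 genes tested (11.9% higher and 10.7% lower). TCF7L2 increased by 0.58 ± 0.13 on the log2 scale (SE, n = 3 and 3; edgeR adjusted p = 0.00274), with no vehicle culture overlapping a control culture. LEF1 increased by 0.57 ± 0.18 (edgeR adjusted p = 0.0241), from 5.06, 6.18 and 4.53 CPM in control, although vehicle control replicate 1 lay within the control range. TCF7 increased by 0.50 ± 0.17 (edgeR adjusted p = 0.0419) and RNF43, from 2.96, 2.44 and 2.08 CPM in control, by 0.60 ± 0.21 (edgeR adjusted p = 0.0461).

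The TCF7L2 call held in all 13 alternatives of this comparison, while those of LEF1, TCF7 and RNF43 were lost in 5, 8 and 8 of them. Only 1 of the 10 genes was called without vehicle control replicate 2, without vehicle control replicate 3 or without control replicate 3, and 2 were called without control replicate 2. Without vehicle control replicate 1, TCF7 and RNF43 were not called but NKD1 was (0.53, edgeR adjusted p = 0.0202), and without control replicate 1 LEF1 was not called (0.54, edgeR adjusted p = 0.0576). SHISA3 differed by 0.35 ± 0.18 (edgeR adjusted p = 0.166). Its rule did not use this comparison but did use the vehicle cultures, so this test is not independent of that choice. NKD1 differed by 0.40 ± 0.15 (edgeR adjusted p = 0.0671) and ZNRF3 by 0.12 ± 0.09 (edgeR adjusted p = 0.346). For AXIN2, LGR4 and LGR5 the log2 fold changes were 0.02, -0.01 and 0.02, with 95% intervals from -0.34 to 0.38, from -0.17 to 0.14 and from -0.65 to 0.70.

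Nap vehicle was compared with control to separate the Nap component. None of the 10 genes was called by edgeR, beside 0% of all 17166 genes tested. DESeq2 called 1 of 33192. Unadjusted edgeR p-values under 0.05 numbered 217, fewer than a share of 0.05 of the genes, which no difference at all would give. The fit was thus conservative, and its lack of calls says little about Nap. With a block for replicate numbers, 1208 edgeR p-values were under 0.05 and 42 genes were called, none of the 10 among them. Both Nap cultures of LEF1 (7.15 and 8.31 CPM) were above all control cultures, with a log2 fold change of 0.56 and a 95% interval from 0.16 to 0.95 (edgeR adjusted p = 1). The value of SHISA3 was -0.47, with an interval from -1.02 to 0.08.

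Vehicle control and Nap vehicle differ, by their labels, in ethanol. Between them 4 of the 10 genes were called, all higher in vehicle control, beside 23.8% of all 16935 genes tested. The 4 include SHISA3. Its rise under P4, by which it was chosen, was measured against these same vehicle cultures. Its test here is thus not independent of that choice. TCF7 was higher by 0.71 ± 0.18 on the log2 scale (edgeR adjusted p = 0.00554), TCF7L2 by 0.65 ± 0.13 (edgeR adjusted p = 0.0011), SHISA3 by 0.83 ± 0.20 (edgeR adjusted p = 0.00413) and NKD1 by 0.56 ± 0.17 (edgeR adjusted p = 0.0198). With 2 Nap cultures single libraries weighed heavily, and leaving out either leaves 1, which the fit then assumes to vary as the vehicle control cultures do. SHISA3 was not called without Nap vehicle replicate 2 (0.47, edgeR adjusted p = 0.105), TCF7 not without Nap vehicle replicate 1 (0.56, 0.051), and NKD1 not without vehicle control replicate 2 (0.53, 0.0916) or 3 (0.40, 0.17) or either Nap culture (0.55, 0.0532 and 0.56, 0.0615). LGR5, at -0.06 with all cultures, was -0.45 without Nap vehicle replicate 1 (edgeR adjusted p = 0.0113) and 0.53 without Nap vehicle replicate 2 (0.0143), from Nap cultures at 11.6 and 23.1 CPM.

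Per kilobase of exon, LGR4 had the highest level of the 10 in control cultures at 15.0 ± 1.12 RPKM (SD, n = 3), followed by ZNRF3 at 4.77 ± 0.257 RPKM. SHISA3 (3.40 ± 0.912 RPKM) and LGR5 (3.15 ± 1.13 RPKM) overlapped, as did AXIN2 (1.45 ± 0.290 RPKM) and TCF7L2 (1.37 ± 0.113 RPKM). LEF1 followed at 0.980 ± 0.157 RPKM, TCF7 at 0.571 ± 0.118 RPKM and NKD1 at 0.473 ± 0.0260 RPKM, the last of which overlapped TCF7, and RNF43 was lowest at 0.332 ± 0.0589 RPKM. In P4 treated cultures SHISA3 moved to first place at 64.5 ± 10.4 RPKM, above LGR4 at 9.69 ± 1.14 RPKM. ZNRF3 (2.72 ± 0.549 RPKM) there overlapped TCF7L2 (2.10 ± 0.427 RPKM), and LGR5 (1.08 ± 0.424 RPKM) came after LEF1 (2.06 ± 0.309 RPKM) and AXIN2 (1.35 ± 0.290 RPKM), overlapping the latter. RNF43 remained lowest at 0.155 ± 0.0254 RPKM.

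**Figure D3:**
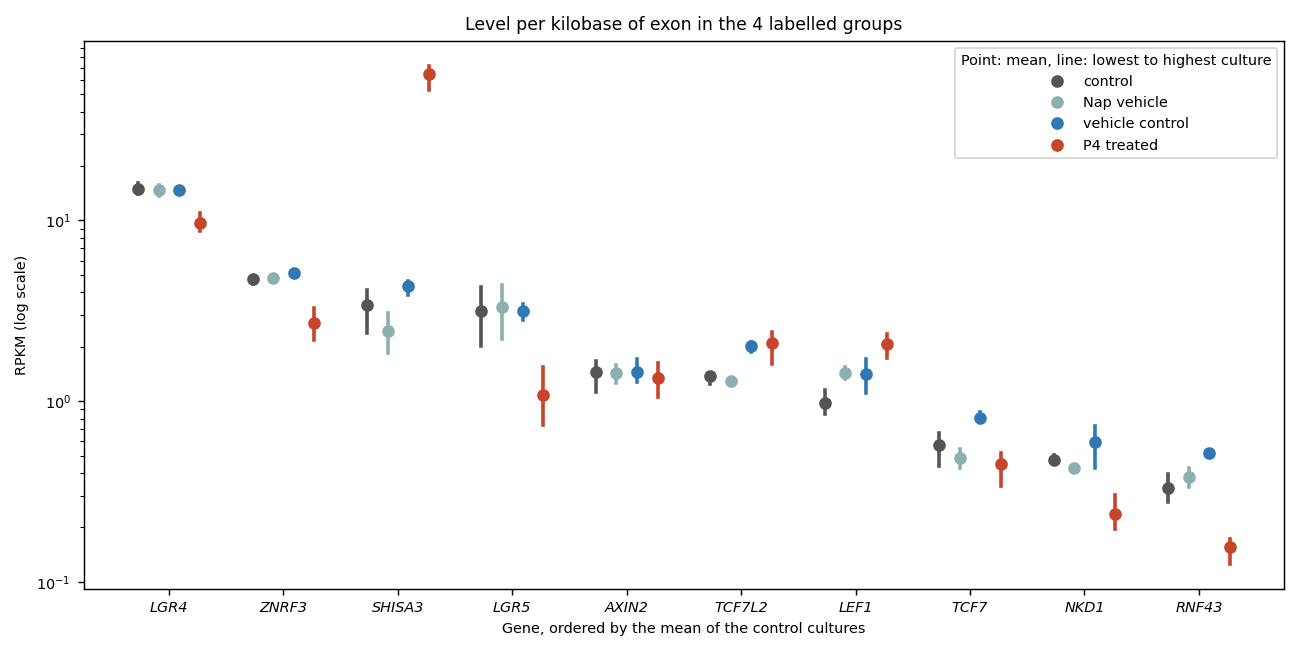
Level per kilobase of exon (RPKM, log scale) of the 10 genes, ordered by the control mean; points are group means and lines run from the lowest to the highest culture of each of the 4 groups. SHISA3 stood at 3.40 RPKM in control and 64.5 RPKM in P4 treated cultures, while AXIN2 kept nearly the same place in all groups.

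The genes whose pattern over all 17 libraries was most like that of AXIN2, by Pearson's r of log2(CPM + 1) among 15652 genes, were BMF, a pro-apoptotic BCL2 relative (r = 0.797), SNAPC2, a subunit of a complex that small nuclear RNA genes need for transcription (r = 0.737), and LRRC56 (r = 0.697). For SHISA3 they were SLC7A2, a transporter of cationic amino acids (r = 0.998), CLIP1, a microtubule plus-end protein (r = 0.996), and TMEM268 (r = 0.996). These are descriptions over libraries that share treatments, and since SHISA3 takes either low or high values with none between, its r mostly reflects the distance between those sets. CLIP1 ran only from 120 to 327 CPM and SLC7A2 from 16.9 to 52.9 CPM where SHISA3 ran from 3.62 to 156 CPM. AXIN2 ran only from 5.48 to 9.53 CPM, and its r values are the highest of 15652. Whether they exceed what unrelated genes would give was not tested.

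Other pathway genes were placed in 7 lists with 138 genes in all, of which 100 could be tested in the P4 comparison. Of these, 65 were called, 33 higher and 32 lower, which is 65.0% beside 53.0% of all genes. Of the 65, 4 higher genes passed the filter on low counts through the P4 cultures alone and 3 lower genes through the vehicle cultures alone. For these the filter itself favoured a difference. FZD9 also passed through the vehicle cultures alone and was not called (-0.42, edgeR adjusted p = 0.266). Among the 91 genes that passed the filter in both groups, 58 were called, 29 in each direction. The share of all genes was not computed for that filter. With at least 10 counts required in every library compared, 56.7% of all genes tested were called. With control as the reference 57 were called, 34 higher and 23 lower, beside 54.8% of all genes. With Nap vehicle 57 were called, 36 higher and 21 lower, beside 49.7% of all genes. In the P4 comparison with vehicle control, the median log2 fold change of the 100 genes was -0.02, against -0.01 for all genes. The lists differed in direction, and a list's count is a description of these genes only.

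Of the ligands and their secretion genes, 11 of 21 were tested, with 1 called higher and 5 lower. WNT3A, among those counted as lower, passed the filter through the vehicle cultures alone. WNT11, a ligand mostly of beta-catenin independent signalling, decreased from 15.2 ± 2.30 to 2.24 ± 0.892 CPM (SD, n = 3 each; log2 fold change -2.81 ± 0.22 (SE), edgeR adjusted p = 8.5e-07), and WNT9A decreased by 1.10 on the log2 scale (edgeR adjusted p = 0.00438). WNT11 was itself higher in vehicle control than in control (0.94, edgeR adjusted p = 0.00195). Its log2 fold change under P4 was -1.87 against control and -1.94 against Nap vehicle. WNT9A was not called against control (-0.55, edgeR adjusted p = 0.115). WNT5B, the 1 counted as higher, had 2 to 6 reads in each vehicle library and 14 to 21 in each P4 library, and since it passed the filter through the P4 cultures alone its values are given without a test. The list median was -0.41.

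Of the receptors, 15 of 17 were tested, with 3 called higher and 7 lower and a median of -0.27. Frizzled receptor FZD5 decreased from 75.0 to 48.1 CPM (-0.66 ± 0.07, edgeR adjusted p = 1.4e-05) and the co-receptor LRP5 from 81.3 to 56.9 CPM (-0.53 ± 0.07, edgeR adjusted p = 4.1e-05). LRP5 in control (58.6 to 65.5 CPM) and Nap vehicle cultures (52.8 and 58.3 CPM) lay close to the P4 cultures (55.7 to 58.5 CPM), and it was called with neither as the reference (-0.13, edgeR adjusted p = 0.233, and 0.01, 0.962). The alternative Wnt receptors ROR1 and RYK increased, ROR1 by 1.57 ± 0.11 (edgeR adjusted p = 4.0e-07) and RYK by 0.28 ± 0.06 (edgeR adjusted p = 0.00201).

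The extracellular agonists and antagonists had 10 of 22 tested, with 3 higher and 3 lower, and a median of -0.05. Among those called, NOTUM (higher) passed the filter through the P4 cultures alone and RSPO3 (lower) through the vehicle cultures alone. Both remain in the count and the median. The Dickkopf relative DKK3 increased by 0.78 ± 0.13 (edgeR adjusted p = 3.3e-04) and KREMEN2, a Dickkopf receptor, by 1.21 ± 0.29 (edgeR adjusted p = 0.00357). The secreted antagonist FRZB was at 7, 22 and 22 reads in vehicle control and 3, 0 and 1 reads in P4 treated cultures and passed the filter through the vehicle cultures alone, so no fold change or test is given. KREMEN1 decreased by 0.48 on the log2 scale (edgeR adjusted p = 7.3e-04).

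Cytoplasmic relay and destruction complex genes leaned higher: 25 of 26 were tested, 13 were called higher and 4 lower, and the median was 0.26. FBXW11, an adaptor of the ligase that marks beta-catenin, increased by 0.58 ± 0.06 (edgeR adjusted p = 1.2e-05). The Dishevelled-binding DACT1 was at 2, 11 and 12 reads in vehicle control and 61, 129 and 129 reads in P4 treated cultures. DACT1 too passed the filter through the P4 cultures alone and is given without a test. NKD2, also counted as higher, passed it in the same way. CTNNB1, which encodes beta-catenin, decreased from 438 ± 3.84 to 347 ± 1.90 CPM (SD, n = 3 each; -0.35 ± 0.06 (SE), edgeR adjusted p = 2.3e-04), and the complex member AMER1 by 0.59 (edgeR adjusted p = 3.2e-04).

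Nuclear cofactors had 3 called higher and 5 lower of 15 tested, with a median of -0.02. BCL9L, which links beta-catenin to its co-activators, decreased by 0.94 on the log2 scale (edgeR adjusted p = 5.8e-05) and CHD8, a chromatin remodeller that restrains beta-catenin, by 0.46 (edgeR adjusted p = 4.5e-05). PYGO1, a partner of BCL9 proteins, increased by 0.40 ± 0.08 (edgeR adjusted p = 0.00126) and CBY1, which binds beta-catenin and exports it from the nucleus, by 0.40 ± 0.13 (edgeR adjusted p = 0.021).

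Genes known as Wnt targets in other tissues went both ways, with 10 called higher and 7 lower of 21 tested (27 listed) and a median of 0.31. The cell cycle gene CCND1 decreased from 264 to 119 CPM (-1.16 ± 0.10, edgeR adjusted p = 1.5e-06) and the progenitor factor SOX9 from 62.2 to 31.8 CPM (-0.99 ± 0.10, edgeR adjusted p = 5.1e-06). The angiogenic factor VEGFA increased from 91.5 to 412 CPM (2.15 ± 0.09, edgeR adjusted p = 7.1e-09) and the growth factor FGF18 by 1.12 ± 0.10 (edgeR adjusted p = 1.9e-06). Of 10 relatives of SHISA3, 3 were tested, and SHISA5 was the 1 called, lower by a log2 fold change of -0.36 (edgeR adjusted p = 0.0056). Of the 24 genes named from the lists, 6 were called with neither control nor Nap vehicle as the reference: LRP5, RYK, KREMEN1, KREMEN2, BCL9L and CBY1.

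**Figure D4:**
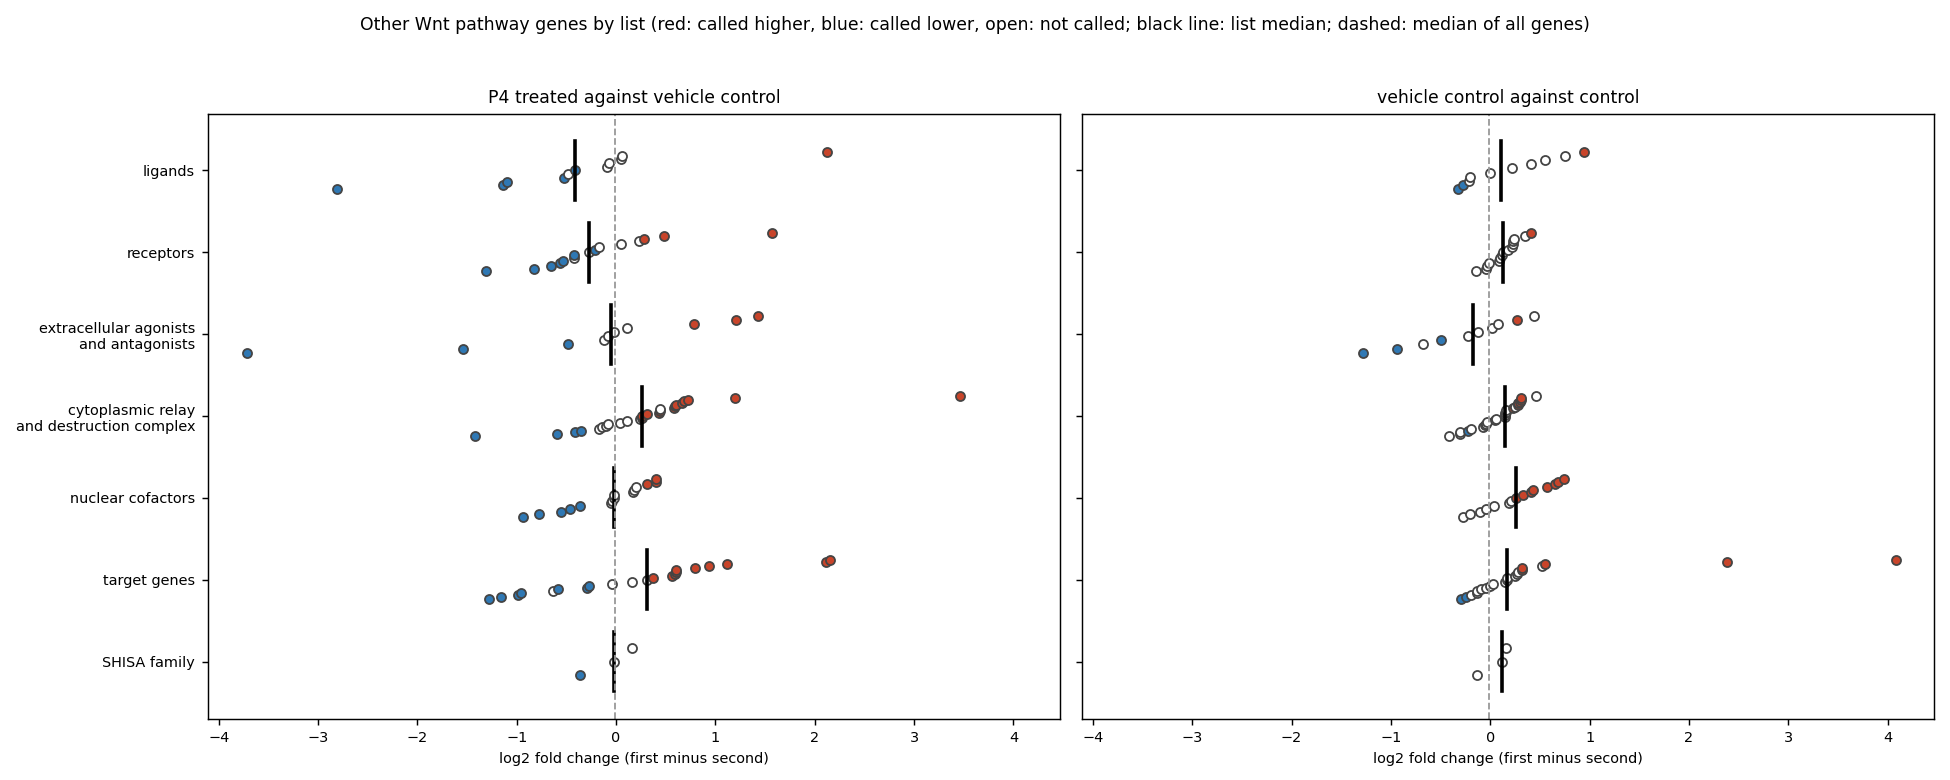
Log2 fold changes of the tested genes in the 7 lists of other Wnt pathway genes for P4 treated against vehicle control (left) and vehicle control against control (right), each point 1 gene, red called higher, blue called lower and open not called; black lines are list medians and the dashed line the median of all genes. In the P4 comparison ligands (median -0.41) and receptors (-0.27) lay lower than relay genes (0.26).

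In vehicle control against control, 30 of 98 pathway genes tested were called, 22 higher and 8 lower, or 30.6% beside 22.6% of all genes, with a median of 0.15 against -0.01. This count was 18 without vehicle control replicate 2 and 17 without vehicle control replicate 3, beside 12.0% and 11.1% of all genes. All 8 of the 15 nuclear cofactors that were called were higher, among them CREBBP (0.74, edgeR adjusted p = 1.7e-06) and BCL9L (0.65, edgeR adjusted p = 1.8e-04), both chosen here after their values were seen. JUN, an immediate early gene on the target list, was also chosen after its values were seen, with an increase from 1.63 CPM in control by 4.08 on the log2 scale (edgeR adjusted p = 3.8e-14).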

How the data were processed

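Gene expression was measured by RNA sequencing in 17 cultures of Ishikawa cells, 11 of them in 4 labelled groups. Per the study's methods, the authors removed adapters (Cutadapt) and poor reads, mapped the rest uniquely with Subread, and deposited raw read counts per gene made by featureCounts on GENCODE 31. Tool versions and the strand setting are not given in the sources used here. DESeq2 served for the authors' own tests.

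The counts were analysed in R 4.3.3 with edgeR 4.0.16: TMM, filterByExpr at a minimum count of 10, and robust quasi-likelihood fits that held only the groups compared. Genes with a Benjamini-Hochberg adjusted p under 0.05, over all genes tested, were called. CPM used TMM-scaled library sizes over all 17 libraries, and RPKM divided these by the exon length in GENCODE 29 (GRCh38), which holds 43963 of the 60662 gene versions. A further 14614 genes matched under another version, 2064 were named from a gene name table and 21 had no name. Totals of 4999521 to 19704493 reads set the counting error. Replicates are labelled biological, and p-values measure only the spread between these cultures of 1 line. No 2 replicates agreed within sampling noise (chi-square per degree of freedom 1.54 to 20.6).

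The 10 genes, the lists and the markers were chosen with earlier results of these data known. Named were the 10 genes, in each list the 2 called genes of smallest adjusted p per direction under P4, the 3 genes of highest r to AXIN2 and SHISA3, and the markers; exceptions are marked. On simulated counts the P4 comparison recovered 178 of 200 changed genes with 10 false calls, at a dispersion of 0.02. The simulation tested 16510 genes, few of them changed, and gave all the same dispersion. In the data 53.0% of genes were called, so its error rates cannot be carried over to the data. Alternatives were RLE and upper-quartile scaling, DESeq2 1.42.0, other filters, a joint fit of all 4 groups, a block for replicate numbers, single cultures left out, and other reference groups. Figures were drawn with matplotlib 3.10.9.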

Additional observations from a re-analysis of the deposited data

Results flagged for a closer look

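Values above every control culture appeared for 3 of the 10 genes in libraries that enter no comparison, those in columns named PSAT1_P4, whose titles and treatment labels name PSAT1 alone. They carry no condition here, so these are values without a test. The share of all genes lying above every control culture in these libraries was not computed. Between P4 treated and vehicle control cultures, also 3 and 3, 60.3% of all genes tested did not overlap. LEF1 had a median of 13.7 CPM (11.1 to 15.0) where the highest control culture was at 6.18 CPM. TCF7L2 had a median of 14.5 CPM (11.3 to 18.4) beside a highest control value of 9.73 CPM. SHISA3 had a median of 141 CPM (141 to 156) beside 8.12 CPM.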

How the results depend on the processing

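In the P4 comparison the counts of genes called, 7 of 9 and 65 of the other pathway genes, stayed within 1.5 times under every alternative run, but the 32 other pathway genes called lower became 21 with Nap vehicle as the reference. With single cultures left out, 6 to 7 of the 9 and 52 to 71 of the others were called, beside 42.1% to 58.1% of all genes. The share of all genes was 53.0% in the main fit, 38.2% with DESeq2 and 27.4% without a filter on low counts. LEF1 also lost its call with upper-quartile scaling (0.38, edgeR adjusted p = 0.072) and with DESeq2 (0.51, DESeq2 adjusted p = 0.0535). Upper-quartile scaling moved the median of all genes to -0.10 and the share of calls that were higher from 50.1% to 40.7%.

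In vehicle control against control, 4 of the 10 genes were called. This count was 1 with DESeq2, 2 without a filter on low counts and 2 with all 4 groups in the fit. The share of all genes called was 17.3%, 11.3% and 17.4% in these fits, beside 22.6% in the main fit. With single cultures left out the count ran from 1 to 3, beside 11.1% to 23.4% of all genes. That of the other pathway genes ran from 17 to 29. In vehicle control against Nap vehicle, 2 of 10 were called with all 4 groups in the fit, beside 10.7% of all genes. The cause was not tested.

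Sign changes were confined to values that the main tests did not call. With single cultures left out, P4 treated against vehicle control ranged from -0.27 to 0.03 for AXIN2 and from -0.06 to 0.18 for TCF7L2. In vehicle control against control the ranges were -0.15 to 0.14 for AXIN2, -0.05 to 0.05 for LGR4 and -0.23 to 0.34 for LGR5. In Nap vehicle against control they were -0.20 to 0.14 for AXIN2, -0.14 to 0.08 for LGR4, -0.51 to 0.48 for LGR5 and -0.02 to 0.06 for ZNRF3. In vehicle control against Nap vehicle they were -0.13 to 0.14 for LEF1, -0.13 to 0.20 for AXIN2, -0.08 to 0.11 for LGR4 and -0.45 to 0.53 for LGR5. Upper-quartile scaling gave -0.06 for TCF7L2 in P4 treated against vehicle control, 0.00 for LGR4 in vehicle control against control and 0.01 for AXIN2 in Nap vehicle against control. DESeq2 gave -0.01 for LGR5 in vehicle control against control and -0.00 for LEF1 in vehicle control against Nap vehicle. Without a filter the values were -0.00 for AXIN2 and LGR5 in vehicle control against control and -0.01 for LGR4 in vehicle control against Nap vehicle.

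With the replicate block, vehicle control against control gave -0.03 for AXIN2 and -0.01 for LGR5, Nap vehicle against control gave 0.04 for AXIN2 and 0.03 for LGR4, and vehicle control against Nap vehicle gave -0.16 for AXIN2 and -0.03 for LGR4. NKD1 lost its call there in the last comparison (0.37, edgeR adjusted p = 0.119), and the block changed no other call of the 10 genes. Same-numbered cultures of P4 treated and vehicle control did not deviate together (r = 0.042, 0.053 and -0.041 over 15655 genes), and those of Nap vehicle and control did (r = 0.308 and 0.350). The last 2 values are not independent, since the 2 Nap cultures deviate from their mean by equal and opposite amounts. There are only 2 such pairs and the labels name no shared batch, so the main fits hold no block. Whether same-numbered cultures share more than a number was not tested. With the block, 42 of all 17166 genes were called in Nap vehicle against control, where 0 were without it. Unadjusted edgeR p-values under 0.05 numbered 1208 with the block and 217 without it. None of the 42 genes is counted as a change here.

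Counts were lowest for RNF43, at 8 reads in 1 library, which limits the precision of its values.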

Other observations

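For the 6 libraries without a condition, the share of all genes lying outside the control range was not computed. They gave the remaining genes as follows. In the columns named PSAT1_P4, LGR4 (53.6 to 64.4 CPM), LGR5 (3.58 to 5.79 CPM), RNF43 (0.828 to 1.37 CPM), ZNRF3 (18.3 to 19.0 CPM) and NKD1 (3.68 to 4.71 CPM) were below every control culture, and AXIN2 (6.58 to 8.74 CPM) and TCF7 (4.03 to 5.89 CPM) overlapped them. In the columns named PSAT1, whose titles name PSAT1 with P4, LGR4 (85.6 to 86.8 CPM) was below every control culture (89.6 to 103 CPM), and the other 9 genes overlapped the control range, SHISA3 at 4.93 to 7.71 CPM and LEF1 at 5.06 to 6.46 CPM.

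LGR5 was highest and SHISA3 lowest in the replicate numbered 2 in control (22.5 and 4.67 CPM), in Nap vehicle (23.1 and 3.62 CPM) and in the columns named PSAT1 (20.3 and 4.93 CPM). In vehicle control the same replicate had 18.0 and 7.66 CPM, again the highest LGR5 and the lowest SHISA3 of its group, but this did not hold in P4 treated cultures, where it had the lowest LGR5 (3.86 CPM) and the middle SHISA3 (136 CPM), or in the columns named PSAT1_P4, where it had the middle LGR5 (5.34 CPM) and the highest SHISA3 (156 CPM). Among P4 treated cultures, replicate 1 had the highest LGR5 (8.17 CPM), ZNRF3 (22.8 CPM), NKD1 (5.28 CPM) and LGR4 (69.5 CPM), and the lowest SHISA3 (104 CPM), LEF1 (9.32 CPM) and TCF7L2 (10.9 CPM). This order was noticed in the values and was not tested.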
